A study of Mus musculus with 10 samples.

Results

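The Wnt ligands, their receptors, their secreted antagonists and a small set of feedback genes were examined in mouse hepatic stellate cells, the perisinusoidal cells of the liver that store vitamin A. Members were the protein-coding genes with a Wnt, Fzd, Dkk, Sfrp, Rspo or Lgr4 to Lgr6 symbol, together with Lrp5, Lrp6, Wif1, Axin2, Lef1, Tcf7, Nkd1, Nkd2, Rnf43, Znrf3 and Notum. This rule used no measured value and gave 55 genes of the 36047 quantified, of which 24 passed the filter on low counts and entered the test. The 10 libraries came from cells labelled as quiescent, of male C57BL/6 mice, that had spent 5 h in culture. For the next 4 h, in starving medium, the cells of 5 libraries received recombinant mouse Areg at 500 ng/mL and those of 5 were controls. Areg is amphiregulin, which signals through the EGF receptor, and the series title places it as a product of regulatory T cells in fatty liver disease. What the control cultures received in place of Areg, and whether the 5 libraries of a group came from separate mice or cultures, is not given in the labels, so the p-values describe variation among these 10 libraries, and this may be technical.

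Wnt proteins are secreted lipid-modified ligands that bind a Frizzled receptor together with the co-receptor Lrp5 or Lrp6. This stabilises beta-catenin and lets it act with Tcf and Lef factors in the nucleus. Other branches of Wnt signalling do not use beta-catenin. R-spondins bind Lgr receptors and the membrane ligases Znrf3 and Rnf43, which otherwise remove Frizzled from the cell surface, and so raise the response to Wnt. In the liver this pathway is known for setting the gene programme of hepatocytes around the central vein, with endothelial cells as a source of Wnt2 and Wnt9b and both endothelial and stellate cells as sources of Rspo3.

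Areg-treated cells held more Rspo3 transcripts and fewer transcripts of Fzd4, Fzd7, Fzd8, Lrp5, Wnt2, Nkd1 and Znrf3. Of the 24 tested genes, 1 rose and 7 fell at an edgeR adjusted p under 0.05, and 16 did not pass. Across all 13362 tested genes 16.7% passed, 8.34% as higher and 8.32% as lower. The changes were small. Rspo3 rose 1.22-fold, and the log2 fold changes of the genes that fell lay between -0.34 for Nkd1 and -0.22 for Lrp5. The median log2 fold change was -0.21 over the 24 tested Wnt genes and -0.01 over all tested genes. The groups did not overlap for 5 of the 24, against 14.7% of all tested genes. Of these 5, 1 was higher (7.64% of all tested genes) and 4 were lower (7.06%). Without controls 3 and 4, which stood apart from the other libraries, 1 of the 24 was called higher and 5 lower, and the median was -0.13. In that fit 15.9% of 13693 tested genes were called, 1147 as higher and 1031 as lower. The predominance of lower values depended on the correction used. After removal, library by library, of the trend of expression with transcript length and GC content, 3 of the 24 were called higher and 3 lower, the median was -0.05, and the calls of Lrp5, Fzd7, Fzd8 and Znrf3 ended. Those of Rspo3, Fzd4, Wnt2 and Nkd1 stayed, and Fzd1 and Nkd2 were added as higher. Over all genes 14% were called in that fit, 1135 as higher and 741 as lower, so the balance of all calls moved toward higher as well.

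The libraries held 10125184 to 20057962 estimated counts, with 10125184 to 17566891 in controls and 14365027 to 20057962 with Areg. Controls 3 and 4 had the lowest totals and scored 46.6 and 28.6 on the first principal component, where the other 8 libraries scored -16.5 to 0.455. All 12 stellate markers were detected, summing to 6224 to 6526 TPM in controls and 6151 to 6326 TPM with Areg. Dcn alone had a mean of 5390 TPM in controls and 5274 TPM with Areg, so these sums mostly follow Dcn. Of the 12 markers 0 were called higher and 3 lower, or 25%, where 8.32% of all tested genes were called lower. The 3 were Lrat, Ngfr and Lhx2, at log2 fold changes of -0.47, -0.33 and -0.32. The log2 fold change was below 0 for 11 of the 12, against 6859 of all 13362 tested genes. All 10 markers of sinusoidal endothelial cells were detected as well, summing to 3621 to 4092 TPM in controls and 3623 to 3682 TPM with Areg, of which only Stab1 was called (lower). Cdh5 stood at 1136 to 1397 TPM and Lyve1 at 729 to 816 TPM over the 10 libraries. The 9 Kupffer cell markers summed to 419 to 495 TPM in controls and 428 to 472 TPM with Areg, and 0 were called. The 8 hepatocyte markers summed to 813 to 1392 TPM and 852 to 1055 TPM, and 1 of them was called lower. Control 3 was the highest library for Alb (792 TPM), Apoa1, Ttr, Cps1, Ahsg and Tat, but not for Fgb and Hnf4a. Markers of cholangiocytes, mesothelial cells, lymphocytes, portal fibroblasts and smooth muscle summed to at most 18.0 TPM per list in a library. In that order, 3 of 5, 2 of 4, 1 of 5, 5 of 5 and 1 of 4 markers were tested, and 0 were called. In such bulk RNA fewer cells of a type cannot be told apart from less RNA per cell, and the cell of origin of Wnt2, Fzd4 or Rspo3 transcripts was not tested.

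Promoter windows from RefSeq (GRCm38.p6), of 250 bases before and 50 bases after the annotated start, were used here for 4 of the 8 genes that passed, all of them lower with Areg. They are shown to let the sequence ahead of these genes be compared. Each is read 5′ to 3′ on the gene's strand and stops at the RefSeq start, or before it where GENCODE already annotates an exon of the gene. Capitals mark a CCAAT box (CCAAT) or a GC box (GGGCGG) on either strand, and adjoining GC boxes may overlap. The Nkd1 window lies within the span that GENCODE gives for that gene.
Fzd4, chr7:89404116-89404354, plus strand: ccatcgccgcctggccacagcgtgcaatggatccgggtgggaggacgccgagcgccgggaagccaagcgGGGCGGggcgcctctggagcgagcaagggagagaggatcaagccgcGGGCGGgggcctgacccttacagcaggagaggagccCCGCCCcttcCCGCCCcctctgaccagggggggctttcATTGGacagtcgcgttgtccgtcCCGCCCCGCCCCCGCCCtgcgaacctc
Fzd7, chr1:59481897-59482146, plus strand: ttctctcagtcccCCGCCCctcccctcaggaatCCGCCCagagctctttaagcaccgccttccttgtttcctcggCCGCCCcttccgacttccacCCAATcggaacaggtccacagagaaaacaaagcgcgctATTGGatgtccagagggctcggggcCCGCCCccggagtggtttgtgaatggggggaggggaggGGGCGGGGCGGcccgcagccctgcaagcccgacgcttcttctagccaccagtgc
Wnt2, chr6:18030586-18030695, minus strand: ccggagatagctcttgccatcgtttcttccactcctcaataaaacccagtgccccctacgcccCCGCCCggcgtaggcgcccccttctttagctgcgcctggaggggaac
Nkd1, chr8:88527383-88527632, plus strand: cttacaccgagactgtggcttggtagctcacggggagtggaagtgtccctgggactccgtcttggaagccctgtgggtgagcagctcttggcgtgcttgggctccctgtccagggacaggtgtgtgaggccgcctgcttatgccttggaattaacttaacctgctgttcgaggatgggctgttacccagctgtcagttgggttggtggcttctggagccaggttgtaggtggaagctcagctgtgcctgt

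The whole windows of Fzd4, Fzd7 and Wnt2 held 32, 24 and 27 CpG dinucleotides, where the median of 32851 windows was 7, and that of Nkd1 held 6. GC boxes numbered 8 in the Fzd4 window, 7 in that of Fzd7, 2 in that of Wnt2 and 0 in that of Nkd1, and 35.7% of all windows hold at least 1. For Fzd4, Fzd7 and Wnt2, 1 of these GC boxes each lies in the bases not printed. A CCAAT box is found in 37.4% of windows and in each of these 4, for Nkd1 and Wnt2 within the bases not printed. The letters CTTTGAT and CTTTGAA, bound by Tcf and Lef factors, TGANTCA, bound by AP-1, and CCGGAAG, bound by ETS factors, were searched on both strands and had no match in the 4 windows. They occur in 3.73%, 5.14%, 7.81% and 8.86% of all windows. A match is a description of the letters and the absence of one says nothing about binding of a factor outside or within the window.

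**Figure D1:**
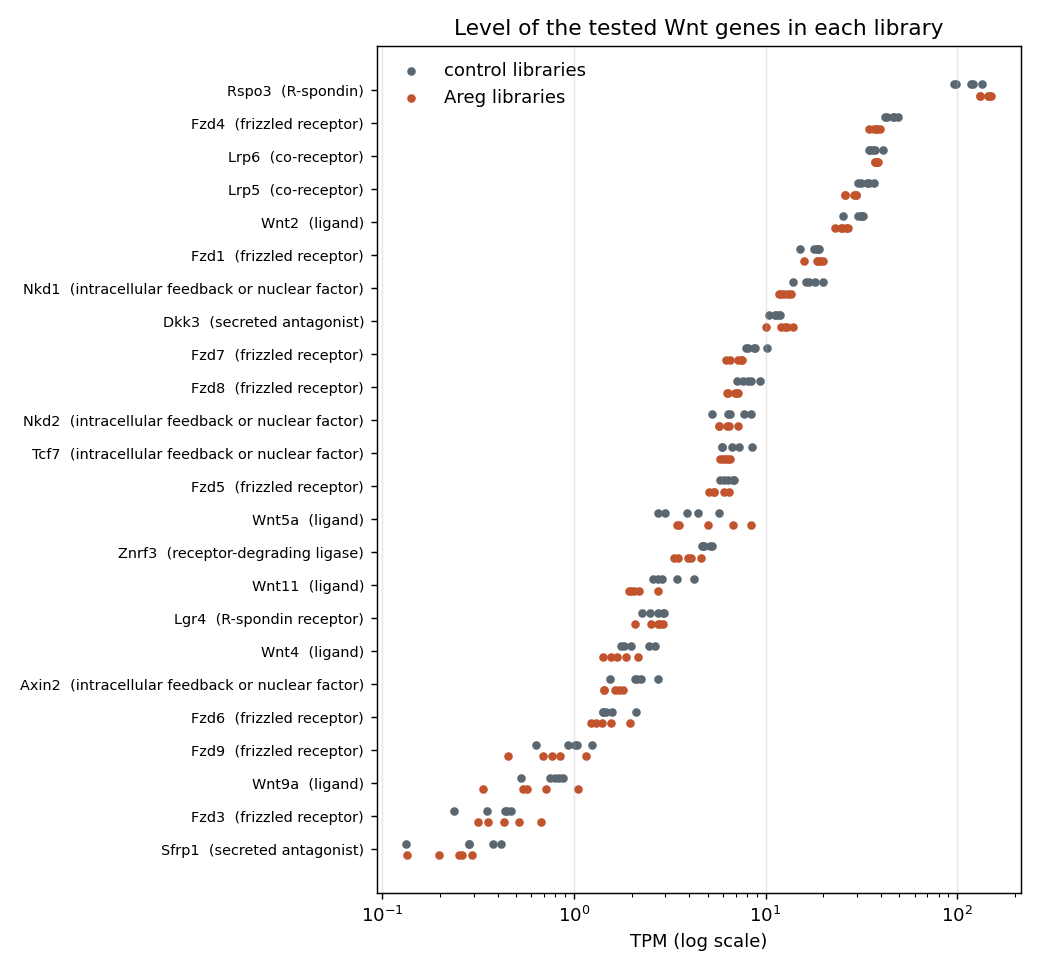
TPM on a log scale (x axis) of the 24 tested Wnt genes (y axis, with the role of each), 1 point per library, grey for the 5 controls and orange for the 5 Areg libraries. Rspo3 lies highest, at a mean of 127 TPM, and Sfrp1 lowest, at 0.263 TPM.

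Among the 19 Wnt ligand genes, Wnt2 was the most abundant and the only one that passed, as lower with Areg. On the per-length TPM scale it had 30.3 ± 2.87 TPM in controls and 25.2 ± 1.55 TPM with Areg (SD, n = 5 each), and it made up 63.8 to 76.8% of the summed TPM of all Wnt ligand genes in each library. On the CPM scale, which sets estimated counts to a common library size by TMM factors, Wnt2 (chromosome 6, 17988940 to 18030585, GRCm38) had 38.6, 38.2, 42.5, 33.4 and 40.8 without Areg and 34.8, 33.0, 31.9, 30.3 and 34.6 with it, each in the order of replicates 1 to 5, as in all such series that follow. Control 4 lay below Areg libraries 1 and 5, so the groups overlapped. The log2 fold change of Wnt2 was -0.23 (SE 0.07, edgeR adjusted p = 0.0256), which is close to the threshold. The call ended under 9 of 24 alternatives, among them without control 3 or 5, without Areg library 2, 3 or 4 and on the TPM scale, and the log2 fold change stayed between -0.27 and -0.20.

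The 4 other tested ligand genes were at lower levels and did not pass. Wnt5a, a ligand known mainly for signalling without beta-catenin, had 8.57, 7.49, 6.73, 6.04 and 7.31 CPM without Areg and 8.38, 7.68, 8.67, 10.3 and 8.65 CPM with Areg. Its highest value was in Areg library 4, the groups overlapped and the log2 fold change was 0.25 (SE 0.11, edgeR adjusted p = 0.128). Wnt11, another ligand of that kind, had 2.92 ± 0.849 CPM in controls, with control 3 at 4.42 CPM, and 2.21 ± 0.430 CPM with Areg (edgeR adjusted p = 0.207). Wnt4 had 5.27 ± 0.935 and 4.39 ± 0.741 CPM (edgeR adjusted p = 0.264), and Wnt9a 1.46 ± 0.248 and 1.27 ± 0.526 CPM (edgeR adjusted p = 0.660). The other 14 ligand genes, Wnt1, Wnt2b, Wnt3, Wnt3a, Wnt5b, Wnt6, Wnt7a, Wnt7b, Wnt8a, Wnt8b, Wnt9b, Wnt10a, Wnt10b and Wnt16, reached at most 11 estimated counts and 0.623 TPM in any library and were not tested. Wnt9b, which liver endothelial cells are known to make beside Wnt2, had at most 2 counts. Wnt3a and Wnt10b were at 0 in all 10 libraries, which allows up to 3 counts, or 0.150 to 0.296 CPM depending on the library, from counting error alone.

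Frizzled receptor genes were led by Fzd4, which fell. It made up 46.3 to 53.8% of the summed TPM of the 10 Frizzled genes. Fzd4 (chromosome 7, 89404355 to 89413134) encodes a receptor that takes both Wnt ligands and Norrin. It had 185, 184, 175, 179 and 189.5 CPM without Areg and 156, 144, 152, 152 and 163 CPM with Areg. All 5 Areg libraries lay below all 5 controls. The log2 fold change of Fzd4 was -0.25 (SE 0.05, edgeR adjusted p = 0.00146), and it stayed called, between -0.28 and -0.23, under each of the 24 alternatives.

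Fzd7 and Fzd8, further receptors of the family, also passed as lower, at mean levels of 7.87 and 7.44 TPM beside 41.4 TPM for Fzd4. Fzd7 (chromosome 1, 59482424 to 59486955) had 25.7, 23.1, 24.6, 21.8 and 21.9 CPM without Areg and 19.5, 17.2, 20.01, 18.1 and 20.6 CPM with it. These groups did not overlap, and the log2 fold change was -0.29 (SE 0.07, edgeR adjusted p = 0.0124). With the length and GC trend removed it was -0.19 (edgeR adjusted p = 0.0681), and the call ended under 4 of 24 alternatives, which include both TPM scales (limma adjusted p = 0.0869 and 0.0878). Fzd8 had 28.02, 27.1, 34.6, 29.7 and 25.6 CPM without Areg and 25.6, 23.3, 25.7, 23.003 and 25.3 CPM with it. Control 3 was the highest library, control 5 lay within the Areg range, and the log2 fold change of -0.23 just passed (SE 0.08, edgeR adjusted p = 0.0497). It was -0.13 without controls 3 and 4 (edgeR adjusted p = 0.235), and the call ended under 16 of 24 alternatives.

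The other Frizzled genes gave no call. Fzd1, the second of the family at 18.2 TPM over the 10 libraries, had 44.2 ± 3.76 CPM without Areg and 46.6 ± 3.97 CPM with it (log2 fold change 0.08, edgeR adjusted p = 0.484). With the length and GC trend removed it was called higher, at 0.23 (edgeR adjusted p = 0.0229), but not with controls 3 and 4 left out as well. Fzd5 had 23.5 ± 1.74 and 22.8 ± 1.74 CPM (log2 fold change -0.05), and this sign turned with that trend removed, at 0.15. Fzd3, Fzd6 and Fzd9 were between 1.04 and 3.35 CPM in each group mean, with edgeR adjusted p from 0.554 to 0.931. Fzd2 and Fzd10 had at most 5 estimated counts in a library and were not tested.

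The co-receptor genes Lrp5 and Lrp6, which encode related proteins of the same role, gave different results. Lrp5 (chromosome 19, 3584828 to 3686564) had 107, 97.6, 109, 107 and 94.6 CPM without Areg and 93.6, 83.4, 88.8, 93.01 and 82.9 CPM with it. The lowest control, 94.6, was just above the highest Areg library, 93.6, and the log2 fold change was -0.22 (SE 0.06, edgeR adjusted p = 0.0124). With the length and GC trend removed it was -0.03 (edgeR adjusted p = 0.658), and the call ended under 4 of 24 alternatives, which include both TPM scales (limma adjusted p = 0.0604 and 0.0598). Lrp6 (chromosome 6, 134446476 to 134566965) had 163 ± 11.99 CPM in controls, with control 3 lowest at 144 CPM, and 174 ± 4.76 CPM with Areg, which did not pass (log2 fold change 0.09, edgeR adjusted p = 0.219). Transcripts of Lrp5 had a mean GC content of 57.2% and those of Lrp6 45.6%. The difference between the changes of Lrp5 and Lrp6 was not tested.

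**Figure D2:**
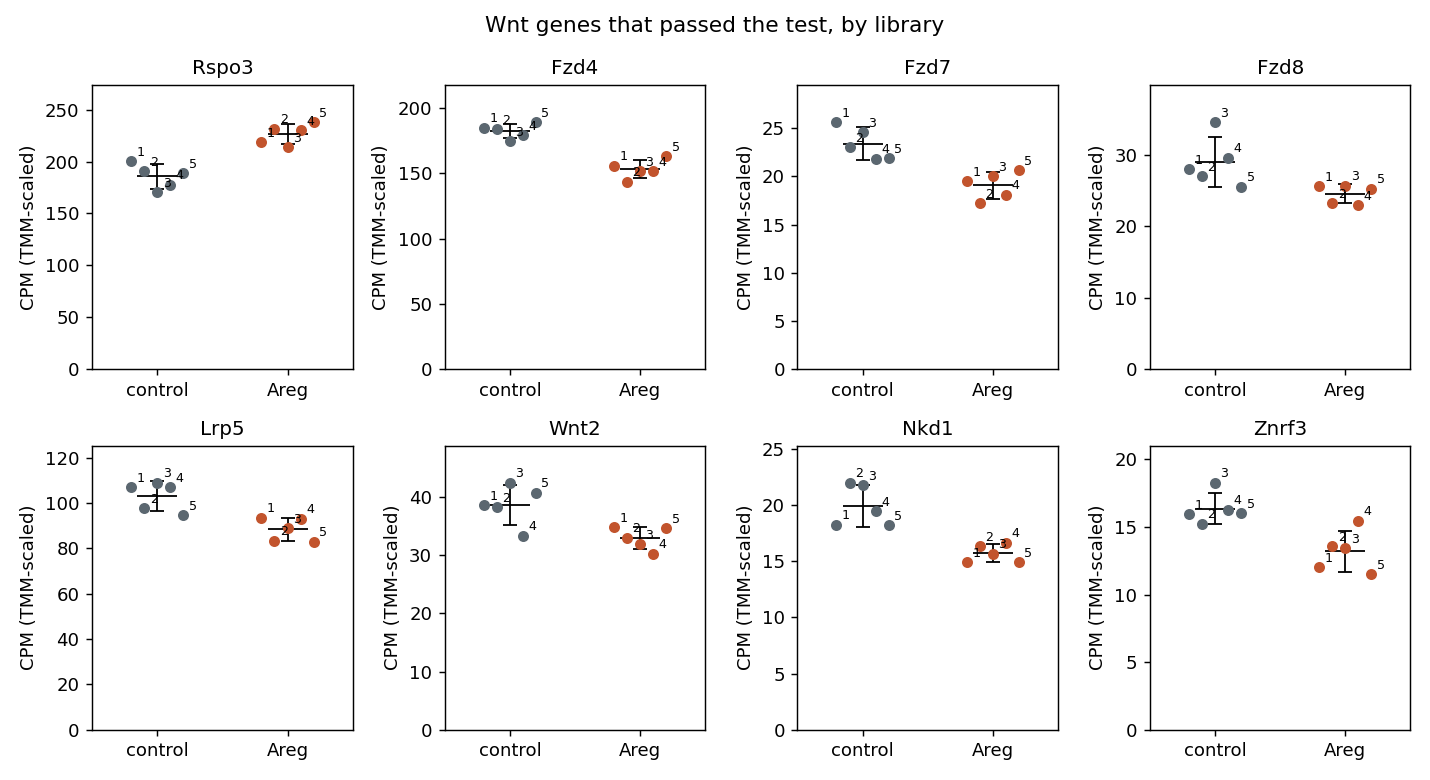
CPM (TMM-scaled, y axis from 0) of the 8 Wnt genes that passed the test, by group (x axis), with 1 numbered point per library, the mean as a bar and the SD as whiskers (n = 5). Rspo3 is higher in all 5 Areg libraries, and Fzd4, Fzd7, Lrp5 and Nkd1 are lower in all 5, whereas the groups overlap for Fzd8, Wnt2 and Znrf3.

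Rspo3 was the Wnt gene with the highest level and the only tested one that rose. It encodes R-spondin 3, the secreted protein that raises Wnt responses by way of Lgr receptors and Znrf3 or Rnf43. Rspo3 (chromosome 10, 29452416 to 29535867) had 200.4, 191, 170.3, 178 and 189 CPM without Areg and 218, 232, 214, 230.5 and 238 CPM with Areg. All Areg libraries lay above all controls, and controls 3 and 4 were the lowest. The log2 fold change of Rspo3 was 0.29 (SE 0.05, edgeR adjusted p = 0.00136). It was 0.23 without controls 3 and 4 (edgeR adjusted p = 0.000609) and 0.21 with the length and GC trend removed (edgeR adjusted p = 0.000426). On the log2(TPM + 1) scale, where the pseudocount is 1, it was 0.31 and missed the threshold (limma adjusted p = 0.0530). The call ended on log2(TPM + 0.1) as well, in all under 2 of 24 alternatives. Exons of Rspo3 overlap an annotated gene on the other strand, from which reads cannot be told apart if strand was not used. In TPM, Rspo3 had 114 ± 16.1 in controls and 141 ± 8.81 with Areg, 99.5 to 100% of all R-spondin TPM in each library.

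The other R-spondin genes were close to absent. Rspo4 was at 0 in all 10 libraries, Rspo1 reached 7 estimated counts and Rspo2 reached 5. Of the R-spondin receptor genes Lgr4 had 7.11 ± 0.736 CPM without Areg and 7.69 ± 0.700 CPM with it (log2 fold change 0.12, SE 0.11, edgeR adjusted p = 0.494). Its sign turned on the TPM scale. Lgr5, the receptor gene known as a marker of stem cells, and Lgr6 had at most 6 and 11 counts and were not tested.

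Znrf3, the ligase gene whose product removes Frizzled from the membrane, fell. It had 15.96, 15.2, 18.3, 16.3 and 15.9998 CPM without Areg and 12.01, 13.6, 13.4, 15.5 and 11.5 CPM with it (chromosome 11, 5276324 to 5444847). Control 3 was highest and Areg library 4 lay within the control range. The log2 fold change of Znrf3 was -0.31 (SE 0.09, edgeR adjusted p = 0.0263). It was -0.26 without controls 3 and 4 (edgeR adjusted p = 0.0646), -0.17 with the length and GC trend removed (edgeR adjusted p = 0.202), and the call also ended without Areg library 1, 2 or 5, with the transcript length offset and on both TPM scales, in all under 9 of 24 alternatives. Its relative Rnf43 had at most 17 counts in a library and was not tested.

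Of the 10 secreted antagonist genes that the symbol rule takes in, 2 were tested and 0 passed. Dkk3, a member of the Dickkopf family whose effect on Wnt signalling is less clear than that of Dkk1, had 21.7, 20.25, 22.9, 22.8 and 23.2 CPM without Areg and 25.1, 20.23, 23.7, 27.9 and 26.1 CPM with it. Areg library 2 lay just below the lowest control and the other 4 above all controls, and the log2 fold change was 0.15 (SE 0.08, edgeR adjusted p = 0.222). Sfrp1, which encodes a secreted protein that binds Wnt through a Frizzled-like domain, had 0.761 ± 0.287 and 0.588 ± 0.158 CPM (edgeR adjusted p = 0.560). Dkk1, the Lrp5 and Lrp6 blocker, reached 25.8 estimated counts and 0.996 TPM at most and was not tested, as were Dkk2, Dkk4, Sfrp2, Sfrp4, Sfrp5, Wif1 and the Wnt lipase gene Notum, each with at most 10 counts in a library.

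Nkd1 fell, whereas its relative Nkd2 and the usual pathway readout Axin2 did not pass. Nkd1 encodes a protein that binds Dishevelled and restrains Wnt signalling, and its gene, like Axin2, is known as a target of beta-catenin. Nkd1 (chromosome 8, 88521354 to 88594884) had 18.3, 21.99, 21.8, 19.4 and 18.2 CPM without Areg and 14.9, 16.3, 15.7, 16.7 and 14.9 CPM with it. The groups did not overlap, and the log2 fold change was -0.34 (SE 0.08, edgeR adjusted p = 0.00727), the most negative of the 8 called Wnt genes. It stayed called under all 24 alternatives, between -0.42 and -0.23. Axin2, which encodes a scaffold of the beta-catenin destruction complex, had 4.40, 3.21, 4.52, 3.53 and 2.55 CPM without Areg and 3.29, 3.02, 2.82, 3.85 and 2.63 CPM with it (log2 fold change -0.22, SE 0.17, edgeR adjusted p = 0.406). The Axin2 groups overlapped, and with a median of 51 estimated counts a library the SE is wide beside that of Nkd1.

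Nkd2 had 11.4 ± 0.948 CPM without Areg and 12.1 ± 0.691 CPM with it (log2 fold change 0.08, edgeR adjusted p = 0.548). Its direction depended on the processing, at -0.09 with a transcript length offset and 0.27 with the length and GC trend removed (edgeR adjusted p = 0.0393). Tcf7, which encodes a partner of beta-catenin on DNA, had 8.55 ± 1.152 and 8.04 ± 0.487 CPM (edgeR adjusted p = 0.554), and the related Lef1 had at most 18.4 counts and was not tested.

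**Figure D3:**
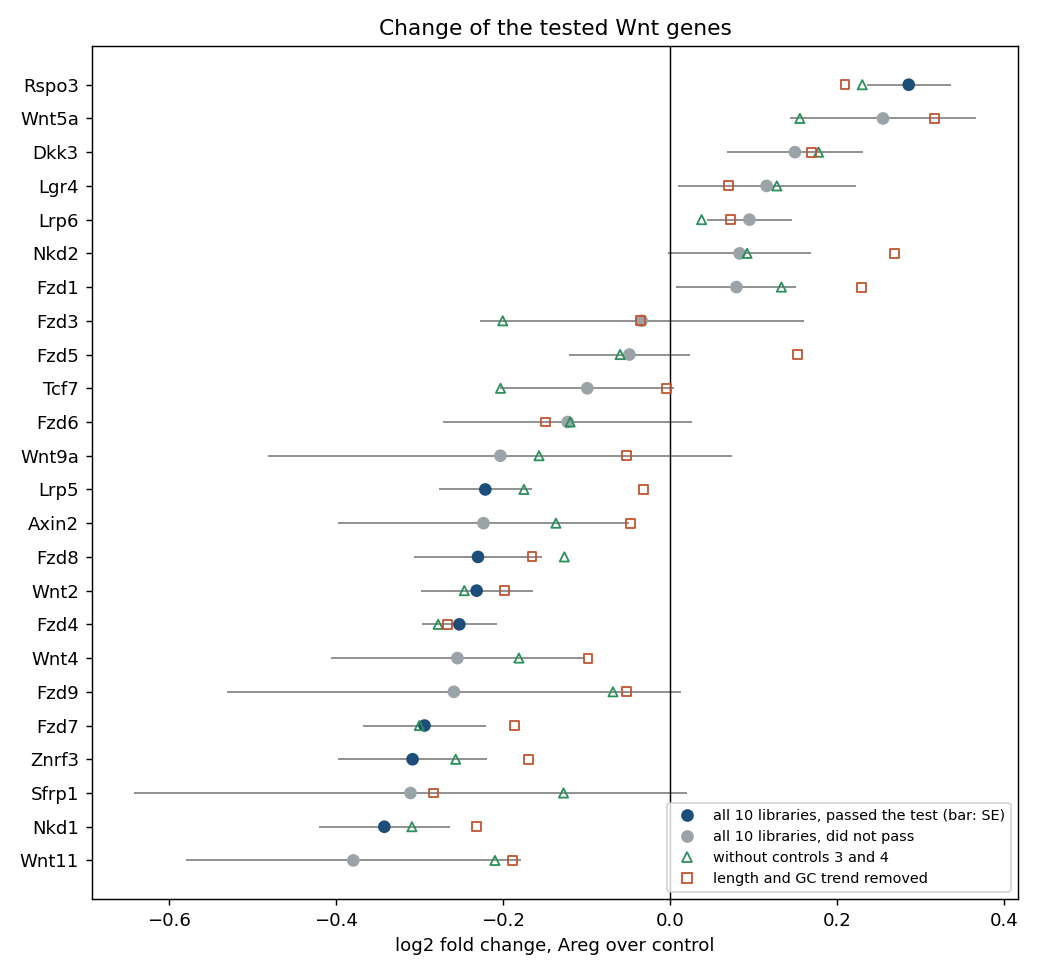
Log2 fold change of Areg over control (x axis) for the 24 tested Wnt genes (y axis). Circles with SE bars use all 10 libraries (blue, passed; grey, did not), green triangles leave out controls 3 and 4, and orange squares have the length and GC trend removed; Fzd4 stays near -0.25 in all 3, while Lrp5 moves from -0.22 to -0.03.

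Transcript estimates showed where some gene totals came from, and they were not tested. Rspo3 was carried by the 3085-base transcript Rspo3-201, at 101 ± 9.40 TPM in controls and 119 ± 3.28 TPM with Areg. The 877-base Rspo3-202 had 20.3, 16.9, 6.83, 3.49 and 17.4 TPM without Areg and 14.2, 26.7, 17.2, 25.3 and 27.2 TPM with Areg, so controls 3 and 4 held the least of it. Of Nkd1, the 1474-base Nkd1-203 had 11.2 ± 2.93 TPM in controls and 7.68 ± 0.840 TPM with Areg, and the 3035-base Nkd1-201 had 4.68 ± 1.10 and 4.04 ± 0.382 TPM. The 2 coding transcripts of Wnt5a shown in the plot of transcript levels had 0.886 ± 0.267 and 1.58 ± 0.278 TPM in controls and 1.04 ± 0.161 and 1.71 ± 0.230 TPM with Areg. The short noncoding Wnt5a-206 was at 0 in all controls and at 3.31 and 0.852 TPM in Areg libraries 1 and 3 alone. TPM and the length offset both use transcript length, and the log2 fold change of Wnt5a was 0.50 with a transcript length offset against 0.25 without (edgeR adjusted p = 0.275 and 0.128).

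**Figure D4:**
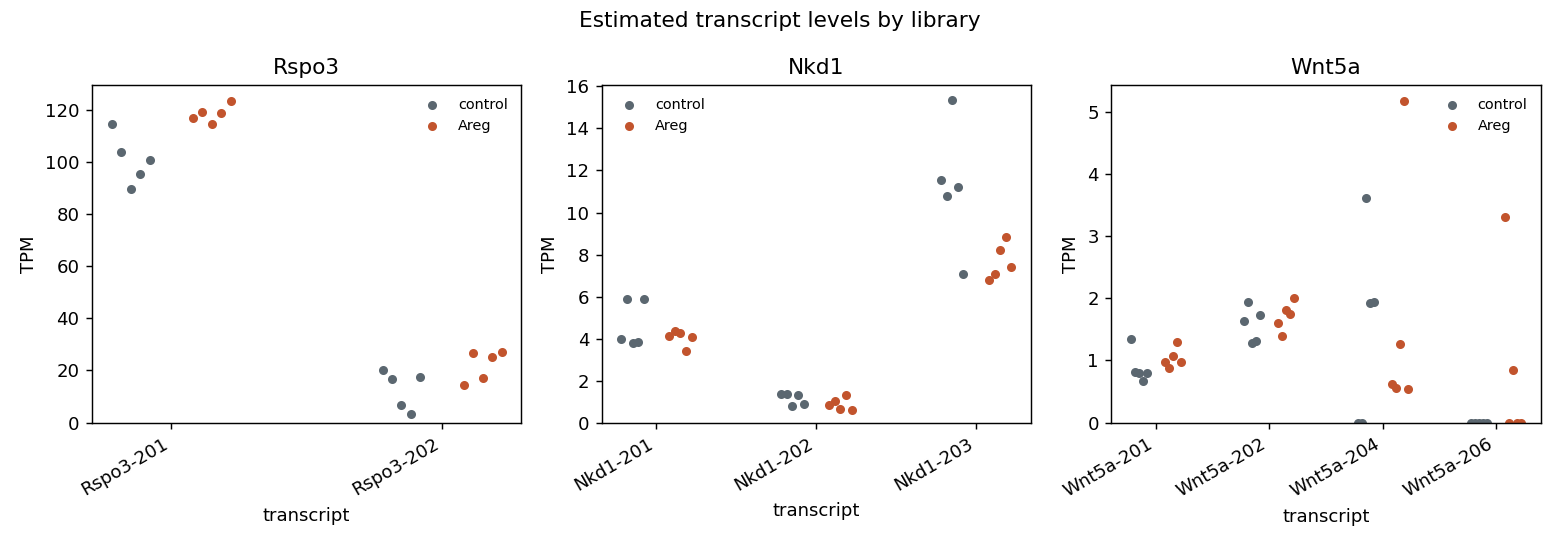
Estimated TPM (y axis from 0) of each transcript of Rspo3, Nkd1 and Wnt5a with a mean of at least 0.2 TPM (x axis), 1 point per library, grey for control and orange for Areg. Rspo3-201 and Nkd1-203 carry most of their genes' TPM, and Wnt5a-206 is above 0 in 2 Areg libraries, at 7 and 2 estimated counts.

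A list of 64 other genes of the pathway was chosen by function, with earlier results of these data known. Of these, 53 were tested, of which 1 rose and 8 fell, or 17% against 16.7% of all tested genes. The median log2 fold change of the 53 was -0.09. The groups did not overlap for 10 of the 53, against 14.7% of all tested genes. Of these 10, 7 were lower, where 7.06% of all tested genes were lower without overlap. Prickle2, a planar cell polarity gene, rose from 174 ± 13.1 to 207 ± 6.96 CPM (edgeR adjusted p = 0.00456), while the related Prickle1 fell from 13.3 ± 1.19 to 10.2 ± 0.944 CPM (edgeR adjusted p = 0.0103). Kremen1, which encodes a Dickkopf co-receptor, fell from 54.4 ± 3.46 to 44.9 ± 1.97 CPM (edgeR adjusted p = 0.00420). These 3 calls held under all 16 alternatives run for this list.

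The other falls were less steady. Dvl2, a Dishevelled gene, and Bcl9l, a beta-catenin coactivator gene, had log2 fold changes of -0.32 and -0.44 (edgeR adjusted p = 0.00839 and 0.00597), which became -0.16 and -0.19 with the length and GC trend removed and no longer passed (edgeR adjusted p = 0.116 and 0.104). Porcn, whose product attaches the lipid to Wnt proteins, Igfbp4, Tcf7l2 and the corepressor gene Tle2 passed at edgeR adjusted p from 0.0403 to 0.0453. Their calls ended under 11, 12, 10 and 12 of the 16 alternatives, among them without controls 3 and 4 together.

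Ctnnb1, Wls and Frzb, all from the wider list, gave no call. Ctnnb1, the beta-catenin gene, had 1153 ± 43.2 CPM without Areg and 1080 ± 14.7 CPM with it (log2 fold change -0.09, edgeR adjusted p = 0.149). Its groups did not overlap, with the lowest control at 1098 CPM and the highest Areg library at 1096 CPM. Wls, which carries Wnt proteins to the cell surface, had 64.8 ± 6.49 and 63.6 ± 1.82 CPM (edgeR adjusted p = 0.780). Frzb, a secreted Frizzled-related antagonist gene that the symbol rule does not take in, had 147 to 174 TPM over the 10 libraries, above all 55 members in mean TPM, and did not pass (log2 fold change 0.03, SE 0.04, edgeR adjusted p = 0.641). Of 6 reported Wnt target genes outside the members 5 were tested and 0 passed, among them Ccnd1 (log2 fold change -0.15, edgeR adjusted p = 0.491) and Ccn4 (0.36, edgeR adjusted p = 0.0510). By unadjusted edgeR p under 0.05, 1 of these 5 (Ccn4) would pass, against 31.4% of all tested genes.

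**Figure D5:**
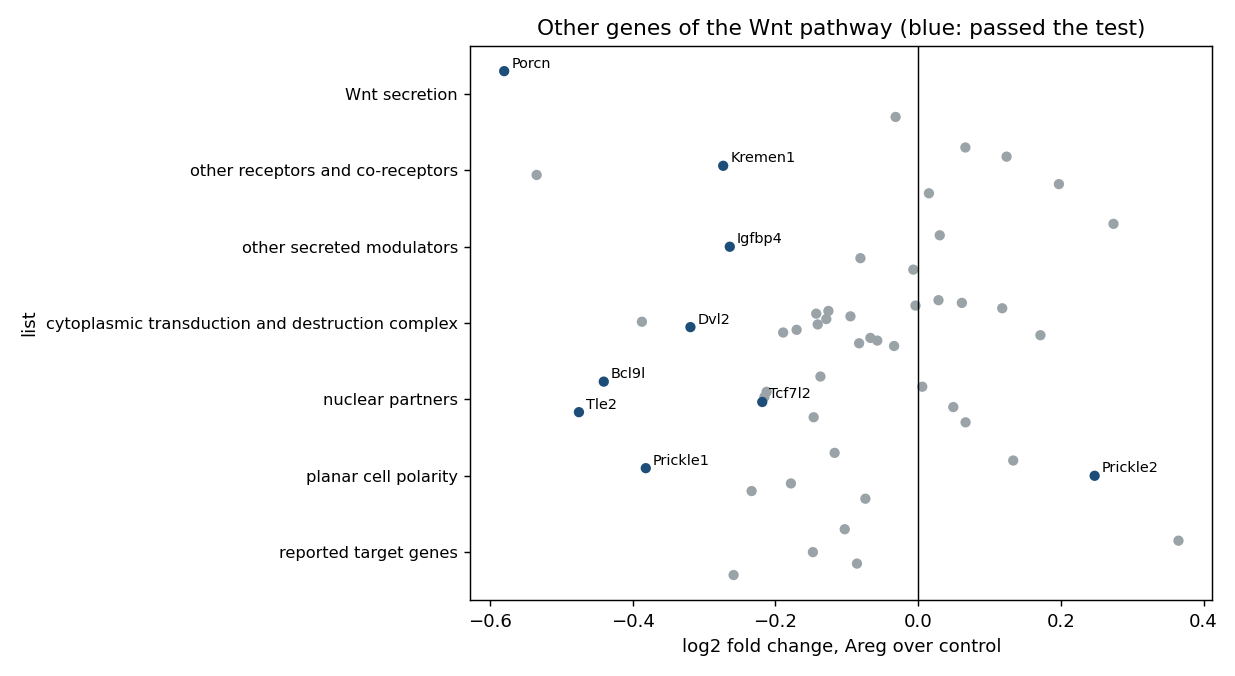
Log2 fold change of Areg over control (x axis) of the 53 tested genes of the wider Wnt pathway, grouped by list (y axis), with all 10 libraries. Blue points with names passed the test; Prickle2 is the sole one to the right of 0, and 8 lie to the left.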

How the data were processed

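Per the file headers, the authors deposited for every transcript an estimated count (not always whole) from kallisto's assignment of reads, and a TPM value scaled by length and to a common total. Tools and build named in the submitters' processing notes are bcl2fastq 2.19, kallisto 0.44.0, DESeq2 and GRCm38.p6. The strand setting and transcript set were not given in the sources used here. Per the labels' protocols, libraries were TruSeq after poly-A selection. Transcripts were summed to genes with GENCODE M21, which matched 116816 of 118489 and left 0.736 to 0.778% of counts unused. Counts were rounded.

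All genes were fitted together with edgeR 4.0.16 (quasi-likelihood, TMM, filterByExpr with minimum count 10 and total 15), with Benjamini-Hochberg adjustment over 13362 genes and a threshold of 0.05. Each SE was derived from F and the log2 fold change. In 5 simulated versions of this comparison (13362 genes, 200 of them changed), 38.2% of 1.25-fold, 86.0% of 1.5-fold and 97.9% of 2-fold changes were recovered. The simulated counts had the same dispersion for every gene (coefficient of variation 9.37%), no library standing apart and no trend with length or GC. With 200 genes changed, against 2226 called in the data, the adjusted threshold was also stricter in the simulation. These shares are taken over all genes, so they need not hold for genes with few or more variable counts. Alternatives used DESeq2 1.42.0, limma 3.58.1, other factors, filters and scales, the replicate block and each library left out. Removing the length and GC trend (a per-library spline) and leaving out controls 3 and 4 were added after the data had been seen. All tested Wnt genes and all called genes of the wider list are named. Members, lists and motifs were chosen with earlier results of these data known; CCAAT and GC boxes were added after the promoters had been read. Exons of Rspo3, Fzd5, Fzd6, Axin2, Wnt11 and Wnt5a overlap an annotated gene on the other strand, whose reads cannot be told apart from theirs where strand was not used. The limit of 3 counts covers counting error only.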

Additional observations from a re-analysis of the deposited data

Results flagged for a closer look

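Among 48 groups of 5 values (24 tested Wnt genes in control and Areg libraries), 4 held a library far from the other 4 by Dixon's criterion, of which chance gives about 1 in 20. Wnt11 in control 3 had 4.42 CPM, with the other controls at 2.34 to 2.76 CPM. Wnt11 in Areg library 5 had 2.96 CPM, with the others at 1.90 to 2.14 CPM. Lgr4 in Areg library 4 had 6.48 CPM, with the others at 7.78 to 8.21 CPM. Wnt9a in control 5 had 1.03 CPM, with the other controls at 1.51 to 1.67 CPM. None of these 3 genes passed the test between the groups.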

How the results depend on the processing

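Over all genes 2226 differed, but 1149 with a transcript length offset, 856 on log2(TPM + 1), 868 on log2(TPM + 0.1) and 1364 to 2314 with 1 library left out, the lowest without Areg library 2. Wnt genes called higher numbered 1, 0 on either TPM scale, 3 with the length and GC trend removed, and 1 with the trend removed and controls 3 and 4 left out. With 1 library left out they numbered 1 each time. Those called lower numbered 7, 4 with the length offset, 2 on either TPM scale, 3 with the trend removed, 3 with the trend removed and controls 3 and 4 left out, and 4 to 7 with 1 library left out, with 4 without Areg library 2. Other pathway genes called higher numbered 1, 2 with the replicate block, 3 with the trend removed, 4 with the trend removed and controls 3 and 4 left out, and 1 to 4 with 1 library left out (4 without control 1, 3 without control 2). Those called lower numbered 8, 3 with the length offset, 5 with the trend removed and controls 3 and 4 left out, and 4 to 10 with 1 library left out (4 without control 4, Areg 2 or Areg 5, 5 without Areg 4). Of all called genes 50% were higher, against 60.5% with the trend removed and 37.6% on log2(TPM + 1).

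Signs turned only for genes that did not pass: Lgr4 at -0.018 and -0.025 on the TPM scales; Fzd3 at 0.24 with the length offset, 0.069 and 0.19 on the TPM scales and -0.17 to 0.047 with 1 library left out (above 0 without control 1, 2 or 5 or Areg 1 or 2); Fzd5 at 0.15 with the trend removed and 0.10 without controls 3 and 4 as well, where Fzd9 was at 0.047; and Nkd2 at -0.094 with the length offset and -0.11 and -0.12 on the TPM scales. The cause was not tested. With the replicate number as a block 2357 genes differed and the 8 calls of Wnt genes were kept. Deviations of same-numbered libraries correlated at -0.0465 to 0.144, and 2 of 5 controls correlated best with the Areg library of their number, so the numbers were not taken as pairs. Genes with few counts, such as Axin2 and the 31 untested members, limit what could be detected.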
